A study of Mus musculus with 2 samples.

Results

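A set of 6 genes that travel with the cytotoxic granules of T and natural killer (NK) cells were followed here: Nkg7, Cst7, Ctsw, Srgn, Serpinb9 and Serpinb6b. They were taken by their symbols, 6 of the 27998 genes in the deposited count tables, and every member had UMIs (unique molecular identifiers, each a counted RNA molecule) in both libraries. CD45+ leukocytes of the brain were compared between twi mice (genotype galc-/-), a model of globoid cell leukodystrophy without the enzyme galactosylceramidase, and their WT littermates (galc+/+). Both groups were of the C57Bl/6 strain, untreated and at postnatal day 21, the age at which twi disease begins. Each genotype was 1 droplet library (10x Genomics 3′ v2) made from hemibrains of 2 to 3 animals pooled together. With 1 library per genotype there was no replicate error and no test, so each value below carries an exact 95% interval that covers counting error only.

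Cytotoxic lymphocytes kill by releasing granules that hold perforin and granzymes, proteases that trigger death once inside the target cell. Serglycin, the product of Srgn, is the proteoglycan core on which granzymes are packed, and NKG7 is a granule membrane protein that aids degranulation. Cystatin F (Cst7) inhibits cathepsins, among them the cathepsin that activates granzymes, and cathepsin W (Ctsw) is a protease found mainly in CD8+ T and NK cells. SERPINB9 inhibits granzyme B and so shields the killer cell from its own granules, and Serpinb6b belongs to the same clade of intracellular serpins.

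In the GENCODE M21 annotation of GRCm38, all 6 members were protein coding genes. Nkg7 lay at chr7:43437073-43438249 on the plus strand, Cst7 at chr2:150570415-150578944 on the plus strand and Srgn at chr10:62493833-62527451 on the minus strand. Ctsw lay at chr19:5465043-5468507 on the minus strand, where it overlapped Fibp on the plus strand. The serpin members were neighbours, Serpinb6b at chr13:32965209-32979067 and Serpinb9 at chr13:33003250-33017957, both on the plus strand and 24.2 kb apart, in a run of 16 Serpinb genes. The study's methods kept reads by STAR mapping quality, so that reads which fit several near-identical genes equally well would not be counted, and how many reads of the serpins were lost in this way cannot be read from the counts.

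The promoters of Nkg7, Serpinb9 and Serpinb6b are shown because these members most preferred NK over all CD8 T barcodes together in WT. These promoters also differ in the motifs they hold. Each runs from 250 bases before to 50 bases after the start of the gene on GRCm38.p6 (RefSeq), whose starts differ from those of the GENCODE genes given above, and capitals mark matches to the 5 motifs searched on both strands.
Nkg7, chr7:43436888-43437187, plus strand: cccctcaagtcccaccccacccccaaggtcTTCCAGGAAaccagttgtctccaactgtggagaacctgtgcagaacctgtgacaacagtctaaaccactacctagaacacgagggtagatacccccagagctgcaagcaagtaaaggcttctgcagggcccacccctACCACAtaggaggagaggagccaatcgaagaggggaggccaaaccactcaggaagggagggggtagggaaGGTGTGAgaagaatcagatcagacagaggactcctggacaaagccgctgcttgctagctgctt
Serpinb9, chr13:33004291-33004590, plus strand: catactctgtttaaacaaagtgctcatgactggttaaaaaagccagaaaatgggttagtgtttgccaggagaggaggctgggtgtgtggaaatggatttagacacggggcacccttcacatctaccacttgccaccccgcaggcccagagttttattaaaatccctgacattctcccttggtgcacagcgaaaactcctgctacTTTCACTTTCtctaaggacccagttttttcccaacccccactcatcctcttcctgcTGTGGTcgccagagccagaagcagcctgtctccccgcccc
Serpinb6b, chr13:32965011-32965310, plus strand: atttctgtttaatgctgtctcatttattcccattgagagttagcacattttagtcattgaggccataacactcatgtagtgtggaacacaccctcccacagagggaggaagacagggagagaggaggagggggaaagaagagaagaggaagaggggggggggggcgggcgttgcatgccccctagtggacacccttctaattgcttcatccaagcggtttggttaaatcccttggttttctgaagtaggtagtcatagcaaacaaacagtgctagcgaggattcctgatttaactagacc
The Nkg7 promoter held the T-box motif GGTGTGA starting 13 bases before the gene start, a Runx motif TGTGGT read on the other strand at position -83, and the GAS motif TTCNNNGAA at -220. The Serpinb9 promoter held the interferon response motif (GAAA, any 2 bases, GAAA), read on the other strand as TTTCACTTTC at -46, and TGTGGT at position 10. In the Serpinb6b window none of the 5 motifs was found, which says only that these letters are not in it. Of 32851 promoters in the table, 3.98% held the T-box motif, 16.8% TGTGGT, 16.9% the ETS motif CGGAAG, 3.44% the interferon response motif and 8.30% TTCNNNGAA. Among the others, the promoter of Cst7 held TGTGGT, and those of the 2 Srgn starts held CGGAAG at 2 places and, at the other start, TGTGGT and the interferon response motif. No promoter was used for Ctsw. A match is a run of letters and not a measured binding site.

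The tables held 1278 barcodes (each taken as a cell) and 3749714 UMIs in WT (median 2216 UMIs per barcode) and 1220 barcodes and 4807539 UMIs in twi (median 3149.5), and the libraries shared no barcode. At a limit of 15% mitochondrial UMIs, 1271 and 1207 barcodes were kept. Y-linked transcripts without Xist were seen in 38.3% of WT and 17.15% of twi barcodes and Xist without Y-linked transcripts in 0% and 45.4%, so the sex of the pooled animals differed between the libraries. Galc had 4 UMIs in WT and 8 in twi, but a 3′ count does not read the mutation and checks nothing about the labels. Neutrophil markers, which T cells should lack, gave 5.59 UMIs per CD8 T barcode in WT and 1.99 in twi.

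Classes were set by marker UMIs and no member was used to set them. CD8 T barcodes (Cd3 and Cd8 UMIs, no Cd4) numbered 115 in WT and 445 in twi. They were divided into naive (46 and 34), effector by Ccl5 and Cxcr6 (11 and 212) and intermediate (58 and 199). NK barcodes, with NK markers and neither Cd3 nor Cd8, numbered 67 and 59. Barcodes with Cd3 and NK markers left after the CD8 T and CD4 T classes are here called NK receptor T and numbered 41 and 89. Of these, 0% in WT and 2.25% in twi held Cd8 UMIs, with the same shares for Cd4. CD4 T barcodes numbered 49 and 72, other Cd3+ barcodes 99 and 165 and B barcodes 566 and 172. Phagocytes were split into C1q+ (21 and 17) and other (37 and 57) and neutrophils into mature (90 and 36) and immature (146 and 30). In C1q+ phagocytes the microglial marker Tmem119 was found in 20 of 21 WT and 11 of 17 twi barcodes and P2ry12 in 19 of 21 and 12 of 17.

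Over all classes, Nkg7 and Ctsw were the members whose share of barcodes differed most, in percentage points, between the libraries. Nkg7 had 2419 UMIs in 23.4% of WT barcodes and 7002 UMIs in 62.9% of twi barcodes. Ctsw was in 16.8% and 56.4% and Cst7 in 7.40% and 25.4%. Srgn was common in both, in 63.3% and 72.7% of barcodes. Serpinb9 was in 6.45% and 10.4% and Serpinb6b in 8.03% and 13.3%. Because CD8 T barcodes made up 9.05% of WT and 36.9% of twi barcodes, these totals mix the number of cells with the level in each cell, and the classes are described one at a time below.

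Nkg7 was carried by the cytotoxic classes and highest in NK barcodes in both libraries. Its level, as CPM, the UMIs of the gene over all UMIs of the class scaled to 1e+06, was 5109 (95% interval 4793 to 5441) in WT NK barcodes and 3684 (3429 to 3954) in twi NK barcodes. NK receptor T barcodes came next, at 3833 (3515 to 4172) and 2505 (2346 to 2673). In WT the order then ran through effector (2298, 1900 to 2754), intermediate (1296) and naive CD8 T (710), and the intervals of these 5 classes did not overlap, while that of naive CD8 T overlapped the other Cd3+ barcodes at 578. In twi, effector CD8 T at 2480 (2379 to 2583) overlapped NK receptor T, and intermediate CD8 T followed at 2003 (1919 to 2091). CD4 T barcodes had 190 CPM in WT and 417 in twi.

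B barcodes, which should lack Nkg7, give the level of background. They held 71.8 CPM in WT and 67.5 in twi, with a UMI in 4.59% and 11.6% of barcodes at median depths of 2008.5 and 2211.5 UMIs. In WT, 3 of the 566 B barcodes held 69 of their 98 Nkg7 UMIs, together with 351 Ccl5 UMIs. Neutrophils and phagocytes held between 21.8 and 114 CPM of Nkg7, from 3 to 20 UMIs in a class.

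**Figure D1:**
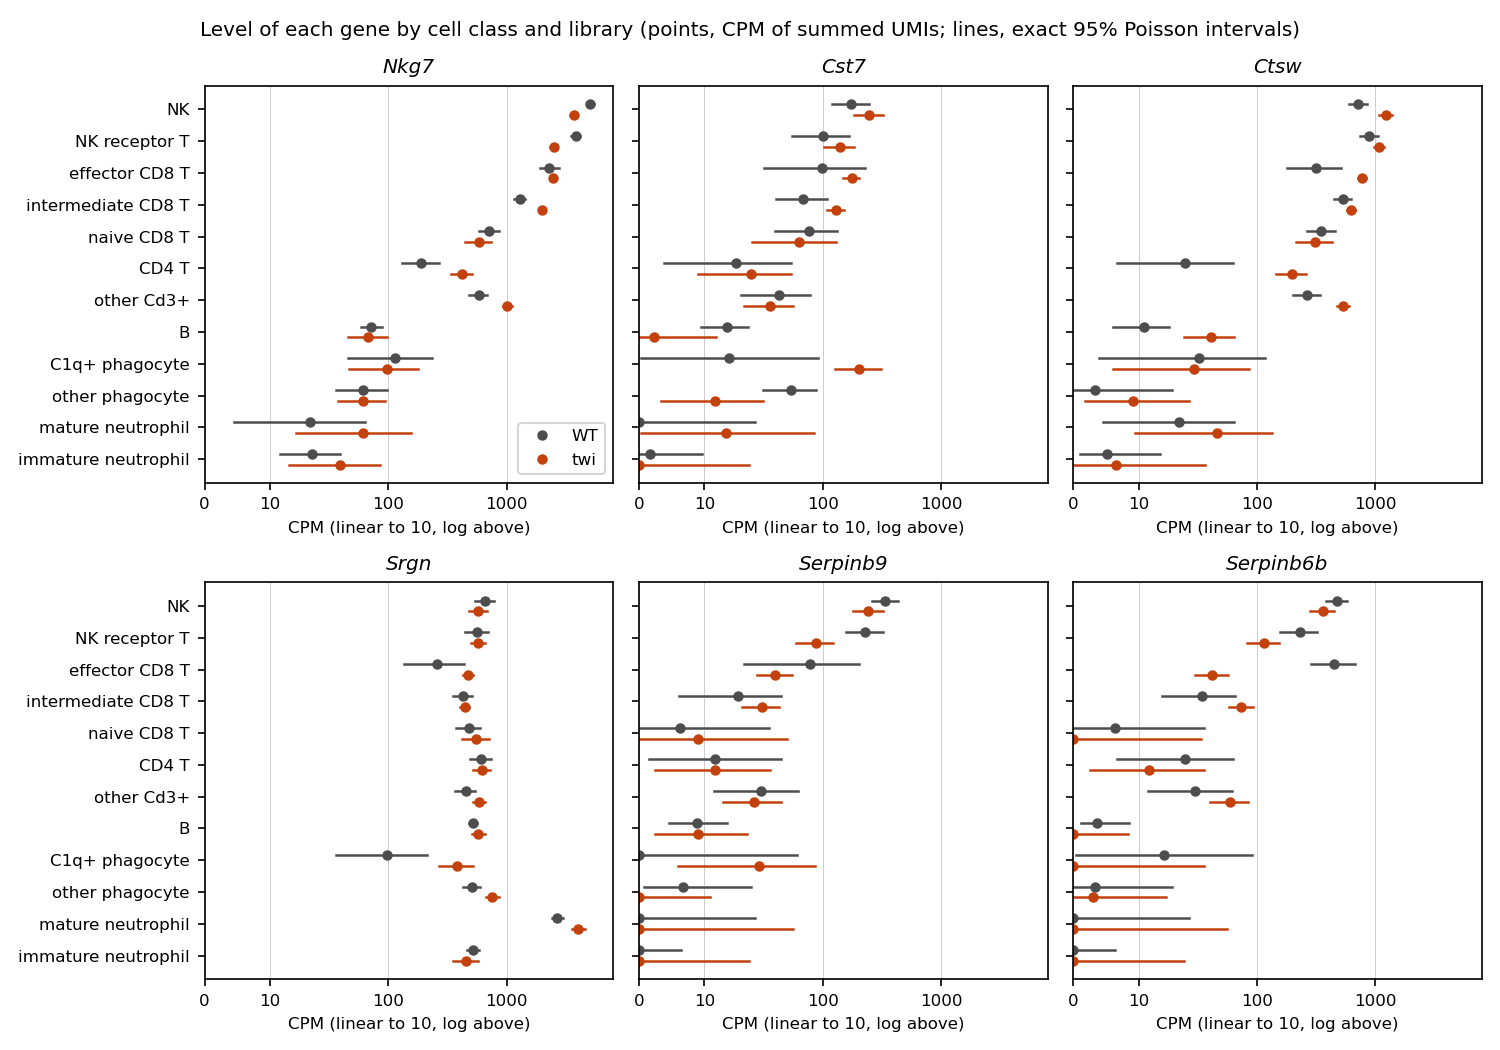
Level of the 6 genes in 12 cell classes of the WT (grey) and twi (orange) libraries, as CPM of UMIs summed over the class, on an axis that is linear to 10 and logarithmic above. Points are the levels and lines exact 95% Poisson intervals for counting error. Nkg7, Serpinb9 and Serpinb6b have their highest points in NK, though in WT the NK intervals of both serpins overlap those of the next class. Srgn peaks in mature neutrophils at 2678 and 4045 CPM.

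Ctsw, the lymphocyte cathepsin, had similar levels in NK and NK receptor T barcodes. It was at 722 CPM (606 to 853) in WT and 1228 (1083 to 1388) in twi NK barcodes and at 888 (739 to 1059) and 1076 (972 to 1187) in NK receptor T barcodes. The intervals of this pair overlapped in both libraries. All CD8 T barcodes together had 448 (390 to 513) in WT and 676 (641 to 712) in twi. CD4 T barcodes were lower, at 24.5 (4 UMIs) and 196 (48 UMIs). Ctsw was in 1.41% of WT and 8.72% of twi B barcodes, at 11.0 and 40.5 CPM, so its background was higher in twi.

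Cst7 was the least abundant of the granule partners. Its CPM was 174 (120 to 244) in WT and 249 (186 to 326) in twi NK barcodes and 74.3 (51.8 to 103) and 146 (130 to 163) in all CD8 T barcodes. Among the classes shown, the intervals of neighbours overlapped all the way down its order in both libraries. B barcodes held 21 UMIs (15.4 CPM) in WT and 1 UMI (2.25 CPM) in twi.

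Deeper barcodes show a UMI more often, so shares were also taken after 1000 UMIs were drawn from each barcode. This left out 2 WT and 6 twi CD8 T barcodes and 1 WT NK barcode. The draw was made once at random for each class, and the intervals do not cover how it varies. Among CD8 T barcodes the thinned share with Nkg7 was 57.5% (47.9 to 66.8) in WT and 75.4% (71.1 to 79.4) in twi, against 86.1% and 93.5% with all UMIs. For Ctsw it was 30.1% (21.8 to 39.4) and 51.3% (46.5 to 56.0), against 60.0% and 84.9%. For Cst7 it was 6.19% (2.53 to 12.3) and 18.2% (14.7 to 22.2), against 20.9% and 42.7%. These 3 genes were therefore seen in a larger share of twi CD8 T barcodes at equal depth as well. Srgn was not, at 31.0% (22.6 to 40.4) and 32.1% (27.8 to 36.7). Thinned shares in B barcodes, of which 47 WT and 2 twi were left out, were 1.54% and 7.06% for Nkg7 and 0.385% and 5.29% for Ctsw, below those of CD8 T barcodes in each library. Nkg7, Cst7 and Ctsw were found together in 15.7% of WT and 38.4% of twi CD8 T barcodes, and in 0.885% and 8.66% after thinning. In NK barcodes all 3 were found in 29.9% and 50.8%, and in 7.58% and 18.6% after thinning.

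**Figure D2:**
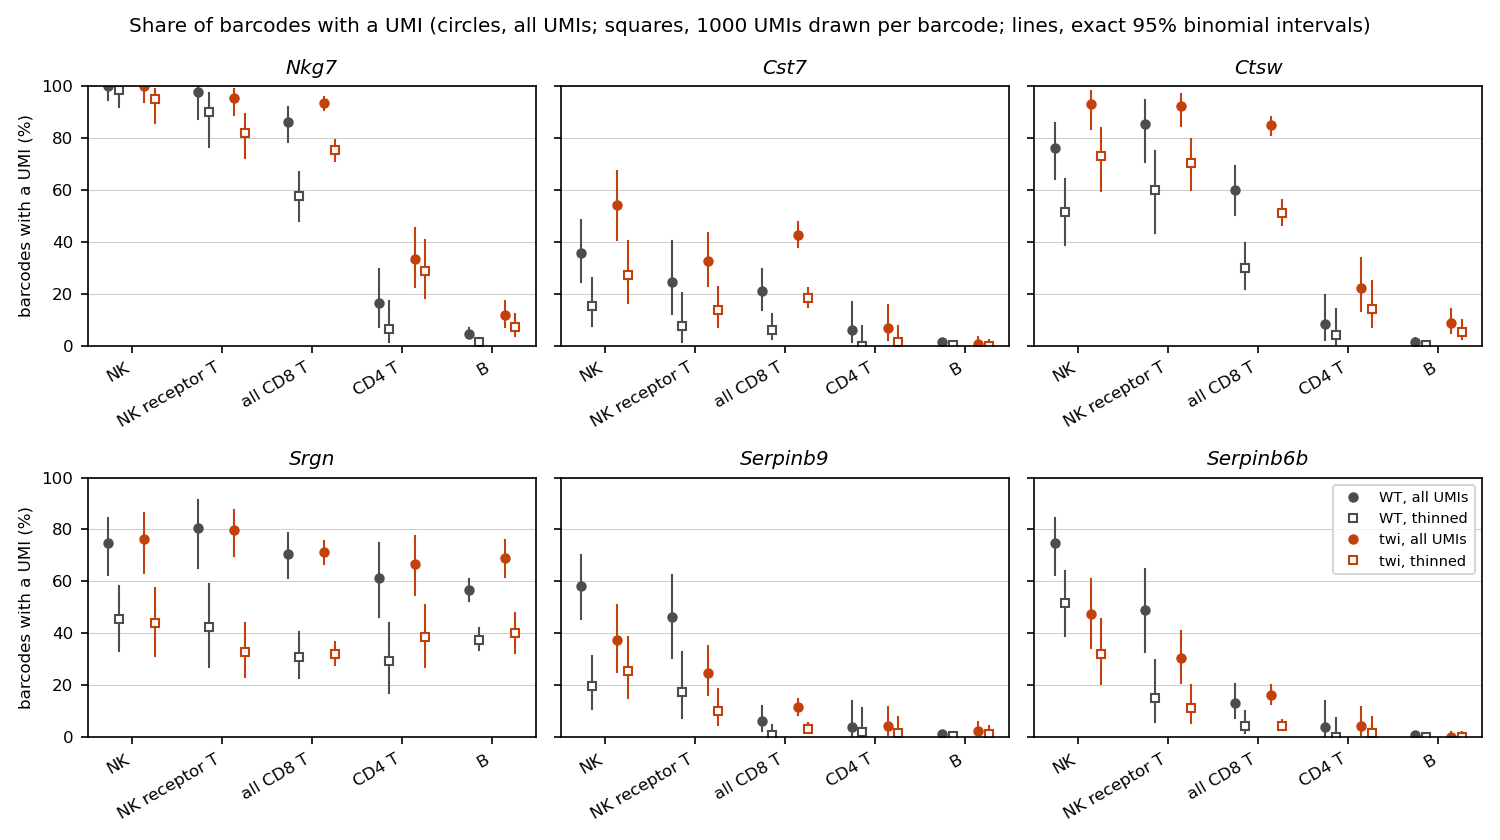
Share of barcodes with at least 1 UMI of each gene, in percent, in 5 classes of the WT (grey) and twi (orange) libraries. Circles use all UMIs, open squares 1000 UMIs drawn per barcode, and lines are exact 95% binomial intervals; the thinned share of CD8 T barcodes with Cst7 was 6.19% in WT and 18.2% in twi, and that with Srgn 31.0% and 32.1%.

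Within the twi CD8 T barcodes, effector barcodes were set against naive ones to ask where among CD8 T cells the members sit. Nkg7 was at 2480 CPM in effector and 578 in naive barcodes, a ratio of 4.29 (3.35 to 5.59). The ratio was 2.77 (1.32 to 7.01) for Cst7 and 2.51 (1.78 to 3.66) for Ctsw. Srgn was the only member with a ratio below 1, at 471 and 551 CPM, 0.856 (0.653 to 1.14). The serpins were rare: Serpinb9 had 37 UMIs in 212 effector and 1 in 34 naive barcodes, a ratio of 4.41 (0.744 to 179). Serpinb6b had 39 and 0, with an interval of the ratio from 1.2 upward, and the ratio was 1.55 with the naive barcodes held at 3 counts. Counted on UMIs as they stand, 5 of 6 members were higher past a ratio of 1.5 and 0 lower, where 31.5% of 4568 genes with at least 25 UMIs were higher and 14.2% lower.

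The WT effector class held only 11 barcodes, and 1 of them decided several values. That barcode, with 5 NK marker UMIs, held 69 of the 117 Nkg7 UMIs, 16 of the 23 Serpinb6b UMIs and all 4 Serpinb9 UMIs of the class. It was also far deeper than the class median of 2161 UMIs, since its 69 Nkg7 UMIs came to only 2860 CPM within it. Its large part of these UMIs thus partly reflects its depth, and it weighs on every CPM of the WT effector class. With it, effector over naive was 3.24 (2.48 to 4.23) for Nkg7, 0.901 (0.482 to 1.60) for Ctsw, 1.29 (0.356 to 3.93) for Cst7 and 0.537 (0.273 to 0.975) for Srgn. Without it the effector level of Nkg7 was 1792 instead of 2298 CPM and that of Serpinb6b 261 instead of 452, and Serpinb9 had 0 UMIs. Ctsw was then at 485 instead of 314 CPM and Srgn at 336 instead of 255. The Ctsw level also rested on a single barcode, which held 10 of its 16 UMIs. Without the CD8 T barcodes with at least 2 NK marker UMIs, effector over naive was 2.46 (1.72 to 3.48) for Nkg7 in WT, and without the barcodes richest in Ctsw it was 0.396 (0.139 to 0.924) for Ctsw.

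The genotype comparison gave different pictures in CD8 T and in NK barcodes. In all CD8 T barcodes Nkg7 was at 1208 CPM (1111 to 1312) in WT and 2140 (2078 to 2203) in twi, a ratio of 1.77 (1.62 to 1.94). Cst7 was 1.97 (1.38 to 2.87) times and Ctsw 1.51 (1.30 to 1.75) times as high in twi. Srgn was about level, at 425 and 460 CPM, a ratio of 1.08 (0.929 to 1.27). Serpinb9 had 10 and 70 UMIs in WT and twi (1.58, 0.809 to 3.44) and Serpinb6b 33 and 116 (0.793, 0.534 to 1.21), and both intervals include 1. Without the barcode richest in Serpinb6b in each library its ratio was 1.36 (0.814 to 2.43). Past a ratio of 1.5, 4 of 6 members were higher in twi and 0 lower, where 19.7% of 7113 genes were higher and 8.01% lower. Since the twi CD8 T barcodes were mostly effector and intermediate, the classes within them were compared too. Intermediate barcodes gave 1.55 (1.38 to 1.74) for Nkg7, 1.88 (1.14 to 3.26) for Cst7 and 1.18 (0.982 to 1.43) for Ctsw. Naive barcodes gave 0.813 (0.589 to 1.12), 0.830 (0.277 to 2.29) and 0.88 (0.556 to 1.37), all with intervals that include 1. Where effector barcodes were set by Cxcr6 alone, intermediate barcodes gave 1.15 (0.993 to 1.33) for Nkg7.

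In effector barcodes the comparison rested on the 11 WT barcodes described above. Nkg7 was level with that barcode included, at a ratio of 1.08 (0.896 to 1.31), and 1.37 (1.03 to 1.86) without the barcode richest in Nkg7 of each library. Ctsw was 2.45 (1.5 to 4.32) and 5.94 (2.72 to 16.2) without its richest barcodes. Serpinb6b, at 452 CPM in WT and 42.0 in twi, had a ratio of 0.0929 (0.0541 to 0.163), which was 0.171 (0.0749 to 0.456) without the 5% of barcodes with most UMIs and 0.336 (0.197 to 0.602) where Cxcr6 alone set the class. Srgn was 1.85 (1.07 to 3.49). Cst7, with 5 UMIs in WT, was 1.79 (0.750 to 5.57) and Serpinb9, with 4 UMIs in WT, 0.507 (0.182 to 1.96), and both intervals include 1. Counting these, 3 members were higher and 2 lower past 1.5. Since 32.1% of 4425 genes were higher and 22.7% lower, shares past 1.5 were high for all genes in this class.

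In NK barcodes Nkg7 was lower in twi, at 3684 against 5109 CPM, a ratio of 0.721 (0.655 to 0.793). Every NK barcode of both libraries carried it, with a median of 13 UMIs in WT and 12 in twi. Ctsw went the other way, at 1228 against 722 CPM, a ratio of 1.70 (1.38 to 2.11). The other members had intervals that include 1: Cst7 1.43 (0.907 to 2.28), Srgn 0.878 (0.677 to 1.14), Serpinb9 0.723 (0.490 to 1.06) and Serpinb6b 0.756 (0.549 to 1.04). Past 1.5, 1 of 6 members was higher and 0 lower, where 9.60% of 2343 genes were higher and 14.2% lower. NK receptor T barcodes repeated the low Nkg7, at 2505 against 3833 CPM, a ratio of 0.654 (0.587 to 0.728). There the serpins were lower as well, Serpinb9 at 87.1 against 229 CPM (0.380, 0.225 to 0.641) and Serpinb6b at 114 against 229 (0.499, 0.307 to 0.816), while Ctsw was 1.21 (0.987 to 1.49). Among barcodes with Y-linked transcripts and no Xist the Serpinb9 ratio was 0.755 (0.252 to 2.08). The NK receptor T class had 3 of 6 members lower past 1.5 and 0 higher, where 15.4% of 2721 genes were lower and 11.7% higher. Its NK marker UMIs were 9.59 per barcode in WT and 8.07 in twi, and its Cd3 UMIs 5.05 and 9.01. The WT class was thus poorer in Cd3, and the part that a different mix of cells within the class plays was not tested.

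Ctsw and Nkg7 were also higher in twi in CD4 T and other Cd3+ barcodes. For Ctsw the ratio was 8.01 (2.93 to 30.6) in CD4 T barcodes and 2.01 (1.52 to 2.69) in other Cd3+ barcodes. It was 3.69 (1.75 to 7.86) in B barcodes too, where the levels of 11.0 and 40.5 CPM are background, and the part of that background in the T cell values was not tested. Nkg7 was 2.2 (1.46 to 3.40) in CD4 T and 1.76 (1.45 to 2.14) in other Cd3+ barcodes. In B barcodes its ratio was 0.940 (0.603 to 1.43), but 3 WT barcodes held 69 of the 98 WT UMIs there. The share of B barcodes with Nkg7 was 4.59% in WT and 11.6% in twi, or 1.54% and 7.06% after thinning. The ratio of 0.940 thus does not show an even background, and the part of background in these Nkg7 values was not tested either. Where 2 UMIs of Cd3 and of Cd4 were asked for, the Nkg7 ratio in CD4 T was 0.764 (0.412 to 1.41), and without the richest barcode of each library it was 3.44 (2.01 to 6.29), so its direction there depends on the gate. The effector markers moved with these values: Ccl5 and Cxcr6 had 0.551 UMIs per CD4 T barcode in WT and 9.88 in twi, in 20.4% and 54.2% of barcodes. In other Cd3+ barcodes they had 6.13 and 10.9 UMIs per barcode, in 40.4% and 73.3%, and Cd8 had 15 and 82 UMIs in all. The part of these markers in the Ctsw and Nkg7 values was not tested.

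**Figure D3:**
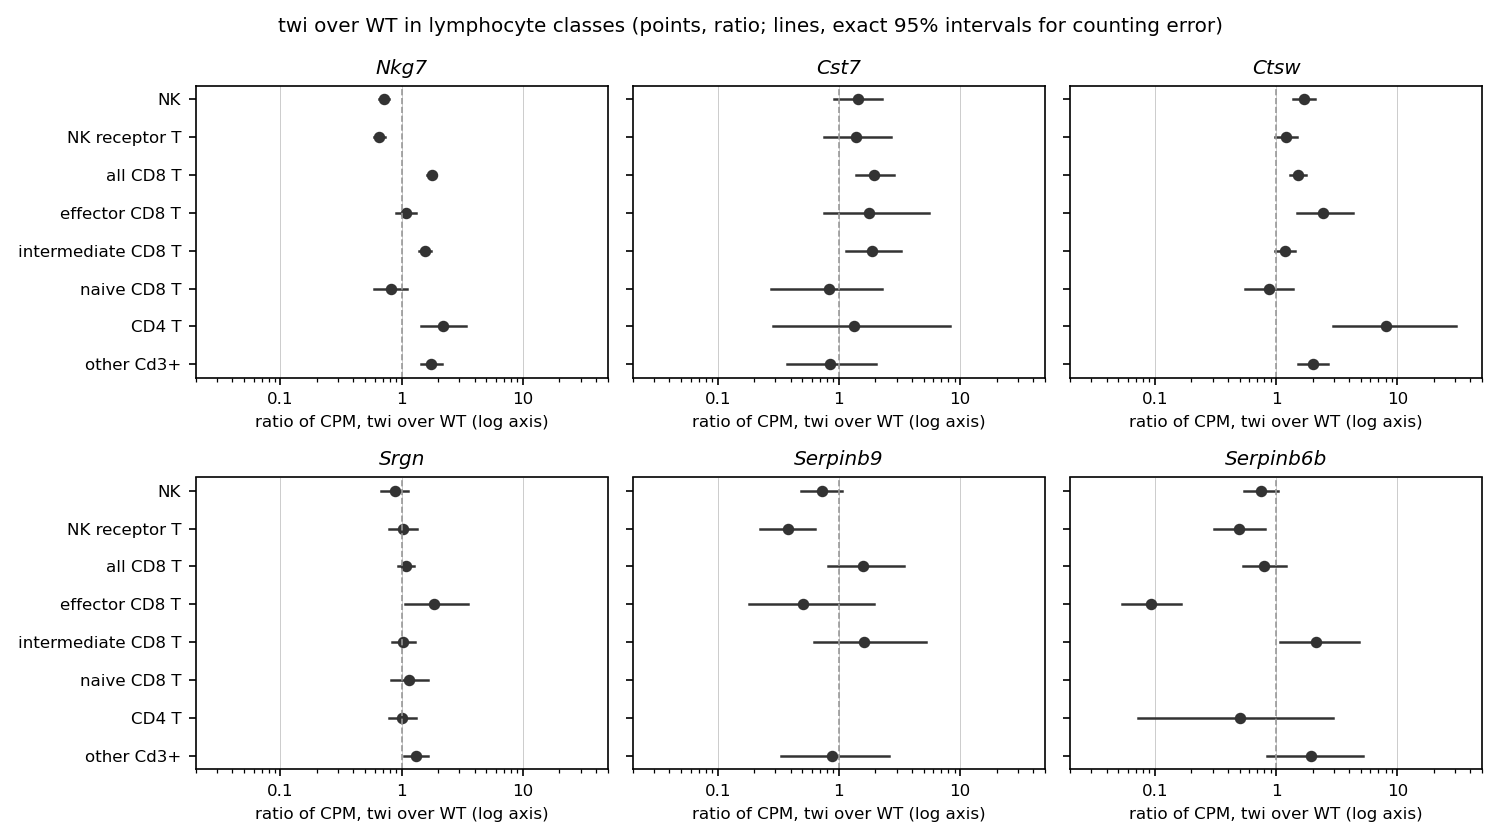
Ratio of CPM, twi over WT, for the 6 genes in 8 lymphocyte classes, on a logarithmic axis with the dashed line at 1. Points are ratios and lines exact 95% intervals for counting error, and a class is left empty where both libraries had 3 UMIs or fewer; Nkg7 is at 0.721 in NK and 0.654 in NK receptor T but 1.77 in all CD8 T, and Ctsw is above 1 in NK, all CD8 T, CD4 T and other Cd3+.

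Set against all CD8 T barcodes of the same library, NK barcodes stood out most by the serpins. Serpinb9 was at 337 CPM (260 to 430) in NK and 21.2 (10.2 to 39.0) in all CD8 T barcodes of WT, a ratio of 15.9 (8.10 to 34.7). In twi it was at 244 (181 to 320) and 33.5 (26.1 to 42.3), a ratio of 7.27 (4.97 to 10.6). For Serpinb6b the ratio was 6.77 (4.49 to 10.4) in WT and 6.45 (4.76 to 8.70) in twi, and the WT value was 11.3 (6.63 to 20.3) without the richest barcodes. For Nkg7 it was 4.23 (3.81 to 4.70) in WT and 1.72 (1.59 to 1.86) in twi. Cst7 gave 2.34 (1.41 to 3.88) and 1.70 (1.24 to 2.29), Ctsw 1.61 (1.29 to 2.01) and 1.82 (1.59 to 2.08), and Srgn 1.54 (1.22 to 1.93) and 1.25 (1.02 to 1.51). In WT, 6 of 6 members were higher past 1.5 and 0 lower, where 29.6% of 3213 genes were higher and 15.5% lower. In twi, 5 were higher and 0 lower, where 22.2% of 6895 genes were higher and 19.7% lower. The median log2 ratio over these genes was 0.27 in WT and 0.15 in twi. At the lowest under the alternatives, Ctsw was 1.24 and Srgn 1.18 in WT, and Nkg7 was 1.48 and Cst7 1.46 in twi. The other members counted stayed past 1.5, so these counts depend on the processing. The CD8 T barcodes differed in make-up, with 46 of 115 naive in WT and 34 of 445 in twi. Against effector barcodes alone, 11 of them in WT, the Nkg7 ratio was 2.22 (1.83 to 2.72) in WT and 1.49 (1.37 to 1.61) in twi. It was 4.29 (1.60 to 16.2) and 6.12 (3.93 to 9.62) for Serpinb9. For Serpinb6b it was 1.05 (0.658 to 1.74) in WT, an interval that includes 1, and 8.54 (5.73 to 12.9) in twi.

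Serpinb9 and Serpinb6b were seen in a minority of CD8 T barcodes. A UMI of Serpinb9 was found in 39 of 67 NK barcodes in WT and 22 of 59 in twi, and in 7 of 115 and 51 of 445 CD8 T barcodes. Serpinb6b was found in 50 of 67 and 28 of 59 NK barcodes and in 15 of 115 and 72 of 445 CD8 T barcodes. Thinned to 1000 UMIs, the share of NK barcodes with Serpinb6b was 51.5% (38.9 to 64.0) in WT and 32.2% (20.6 to 45.6) in twi. For Serpinb9 the thinned shares were 19.7% (10.9 to 31.3) and 25.4% (15 to 38.4), which go against its CPM, so no order is read from them. Within CD8 T barcodes the serpins went with NK markers in WT: barcodes with at least 2 NK marker UMIs had Serpinb6b at 301 CPM (184 to 465) and the others at 32.1 (17.1 to 55.0), and 16 of those 20 UMIs lay in the single effector barcode named above. In twi the same split gave 65.8 (47.2 to 89.3) and 51.2 (40.2 to 64.1). B barcodes had Serpinb9 at 8.80 and 9.0 CPM. Serpinb6b was at 3.66 CPM in WT B barcodes and in 0 of 172 of twi, which by 3 counts allows up to 1.74% of barcodes with a UMI. Neutrophils had 0 UMIs of either serpin, which in the same way allows up to 3.33% of WT and 8.33% of twi mature and 2.05% of WT and 10% of twi immature barcodes with a UMI. These limits cover counting error and are on barcodes with a UMI, not on cells that express the gene.

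The gene list held 27 clade B serpins, of which 17 had no UMI and 7 had at least 10. The serpins that were seen lay in different classes, and Serpinb1a, Serpinb9b and Serpinb10 are named here after their values were seen. Serpinb1a, an inhibitor of neutrophil proteases and the most abundant with 1098 UMIs, was at 500 and 565 CPM in immature neutrophils and 221 and 351 in B barcodes of WT and twi, and at 10.5 and 4.78 in NK barcodes. Serpinb6a, a close relative of Serpinb6b, was at 26.3 and 9.56 CPM in NK barcodes, where Serpinb6b was at 474 and 358. Serpinb9b followed the members, at 100 CPM in the NK barcodes of both libraries and with 0 UMIs in CD8 T barcodes. Serpinb10 lay in the other phagocytes, at 156 and 113 CPM. The 3 clade B serpins with at least 10 UMIs in NK receptor T barcodes were Serpinb9, Serpinb6b and Serpinb9b. All were lower in twi past 1.5, with a median log2 ratio of -1.40 where the median over 5411 genes was -0.10. Of 2721 genes with at least 25 UMIs, 15.4% were lower past 1.5 in that class. Serpinb9b rested on 7 UMIs in WT and 5 in twi.

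**Figure D4:**
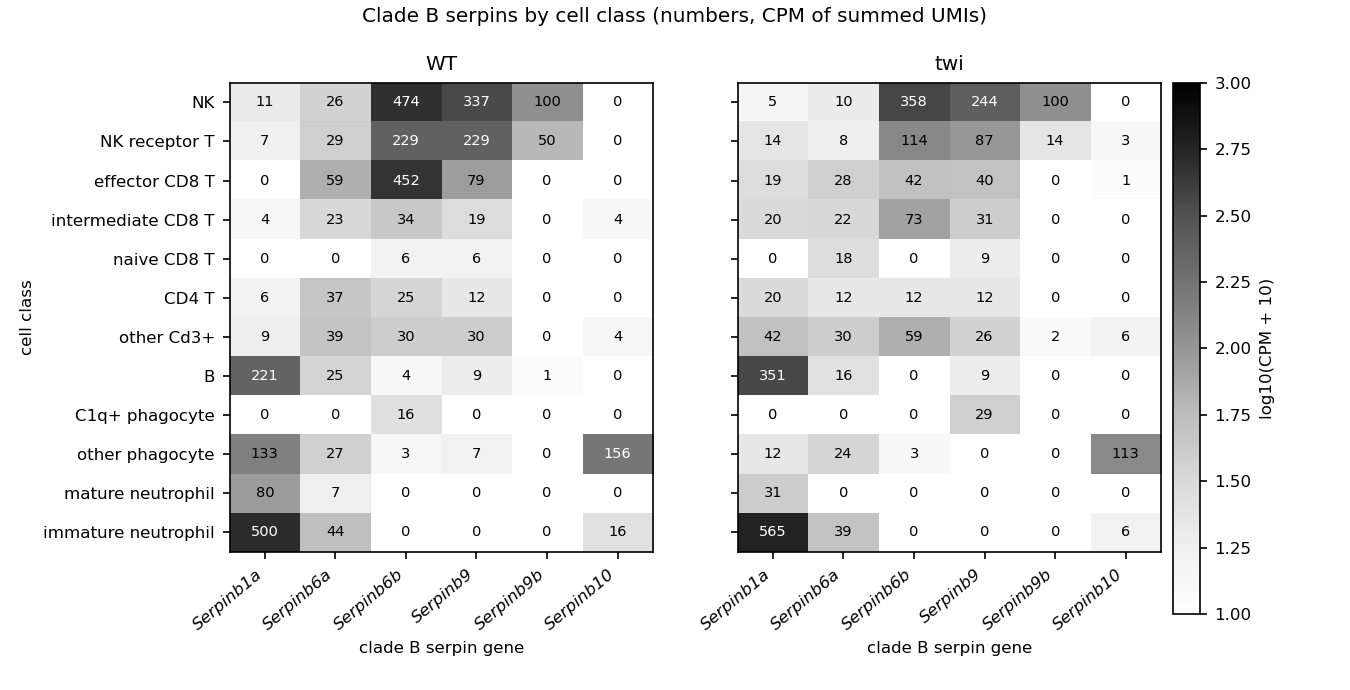
CPM of 6 clade B serpins in 12 cell classes of the WT (left) and twi (right) libraries, printed in each cell and shaded by log10(CPM + 10). Serpinb6b, Serpinb9 and Serpinb9b are highest in NK (474, 337 and 100 CPM in WT), Serpinb1a in immature neutrophils and B barcodes, and Serpinb10 in the other phagocytes, each among the classes shown.

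Srgn differed from the other members in being highest outside the lymphocytes. It peaked in mature neutrophils, at 2678 CPM (2412 to 2966) in WT and 4045 (3572 to 4562) in twi, a ratio of 1.51 (1.28 to 1.77). Immature neutrophils, which still carry transcripts of secondary granule proteins, had 522 (465 to 585) and 455 (354 to 574). Mature over immature was thus 5.13 (4.39 to 5.99) in WT and 8.90 (6.81 to 11.8) in twi as CPM, and at the lowest 3.69 and 6.06 under the alternatives. The gap was smaller in UMIs per barcode, at 4.10 in mature and 2.05 in immature barcodes of WT and 7.36 and 2.33 in twi. Neutrophil markers made up 264594 of 574523 UMIs in WT immature and 39787 of 137791 in WT mature barcodes. Their part in the CPM ratio was not tested. The lymphocyte classes shown lay close together, from 255 to 653 CPM in WT and from 440 to 613 in twi, with B barcodes at 516 and 576, inside that range. After thinning, 55 of 64 WT and 31 of 35 twi mature neutrophil barcodes had a Srgn UMI. Among phagocytes Srgn was higher in twi, at 97.7 (6 UMIs) against 379 CPM (39 UMIs) in the C1q+ class (3.88, 1.63 to 11.2). In the other phagocytes it was at 507 and 756 CPM (1.49, 1.21 to 1.84). Among barcodes with Y-linked transcripts and no Xist the latter ratio was 0.755 (0.509 to 1.10), and without the 5% of barcodes with most UMIs it was 1.08 (0.833 to 1.41), so its direction depended on which barcodes were used. In mature neutrophils the ratio among such Y-linked barcodes was 2.34 (1.17 to 4.30).

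Cst7, which is also a gene of activated microglia, had 1 UMI in 1 of 21 C1q+ barcodes in WT and 21 UMIs in 6 of 17 in twi. That was 16.3 and 204 CPM, a ratio of 12.6 (2.02 to 519). The WT barcode also held Cd3 UMIs and 7 Nkg7 UMIs. Of the 6 twi barcodes, which together held 1 Nkg7 UMI, 5 had no Cd3 UMI and held 18 of the 21 Cst7 UMIs. At 1000 UMIs per barcode Cst7 was found in 1 of 19 and 2 of 16. In the other phagocytes Cst7 had 16 UMIs in 6 of 37 WT barcodes and 4 in 3 of 57 twi barcodes (0.224, 0.0545 to 0.695). There 3 WT barcodes held 12 of the 16 UMIs, and at 1000 UMIs per barcode it was found in 1 of 37 and 1 of 57. Without the 5% of barcodes with most UMIs too few were left for a ratio, so no order is read from this class. Nkg7 was at 114 and 97.3 CPM in C1q+ barcodes (0.854, 0.293 to 2.64), an interval that includes 1.

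Further genes of the granule pathway were taken as lists of cytotoxic effectors, of cathepsins and their inhibitors, of granule membrane and sorting genes and of release genes, and each list is described by how many of its genes with at least 10 UMIs passed a ratio of 1.5. Of 9 cytotoxic effectors, 5 were higher and 1 lower in twi CD8 T barcodes, with a median log2 ratio of 0.78 where that of 9031 genes was 0.07. Among all genes with at least 25 UMIs, 19.7% were higher and 8.01% lower past 1.5 in this comparison. Granzyme B (Gzmb) was at 104 and 390 CPM (3.75, 2.81 to 5.11), Fas ligand (Fasl) had 3 and 137 UMIs (10.3, 3.45 to 50.6), and the granzyme gene Gzmc had 0 and 70. Cathepsins and their inhibitors had 1 of 9 higher and 1 lower (median 0.42), membrane and sorting genes 0 of 4 in either direction (0.28) and release genes 2 of 9 higher and 0 lower (0.21). Cathepsin C (Ctsc), which activates granzymes and is a target of cystatin F, was at 72.2 and 85.2 CPM (1.18, 0.814 to 1.76), and the exocytosis factor Unc13d at 38.2 and 58.4 (1.53, 0.928 to 2.67).

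In effector CD8 T barcodes alone, with 11 WT barcodes, 4 of the 9 cytotoxic effectors were higher and 4 lower in twi, with a median log2 ratio of -0.50 where 7100 genes had -0.14. With the 3 genes at 0 in WT held at 3 counts, 1 was higher and the median was -1.63. Granzyme A (Gzma) was at 1316 CPM in WT and 427 in twi (0.325, 0.250 to 0.427), and Gzmb at 746 and 535 (0.716, 0.515 to 1.02), an interval that includes 1. The WT values of these lists include the deep barcode described above and are not given without it. Cathepsins and inhibitors had 5 of 8 higher and 2 lower (0.91), membrane and sorting genes 0 of 4 higher and 1 lower (-0.44) and release genes 2 of 9 higher and 4 lower (-0.34), or 0 higher and a median of -1.32 with 2 genes at 3 counts. Among all genes with at least 25 UMIs, 32.1% were higher and 22.7% lower past 1.5 in effector barcodes.

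In NK barcodes the same effectors had 1 of 6 higher and 1 lower (median -0.14 where 4795 genes had -0.04). Gzma was the lower one, at 11567 CPM in WT and 7393 in twi (0.639, 0.598 to 0.682), beside Gzmb at 759 and 688 (0.907, 0.715 to 1.15). The other lists were 1 of 7 higher and 1 lower for cathepsins and inhibitors (0.18), 0 of 3 higher and 2 lower for membrane and sorting (-0.63) and 2 of 9 higher and 2 lower for release (-0.26). Among all genes with at least 25 UMIs, 9.60% were higher and 14.2% lower past 1.5 in NK barcodes. NK receptor T barcodes had 2 of 7 effectors higher and 2 lower (0.38 where 5411 genes had -0.10), with Gzma at 5925 and 2233 CPM (0.377, 0.342 to 0.416). In that class the other lists were 1 of 7 higher and 0 lower (-0.12), 0 of 3 in either direction (-0.12) and 0 of 9 higher and 1 lower (0.06), in the same order. The shares of all genes with at least 25 UMIs past 1.5 were 11.7% higher and 15.4% lower in NK receptor T barcodes.

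Between effector and naive CD8 T barcodes of twi, 9 of 9 effectors were higher with a median log2 ratio of 3.40, where 7264 genes had 0.03, but 5 of them had 0 UMIs in naive barcodes. With those 5 held at 3 counts, 8 were higher and the median was 1.5. Cathepsins and inhibitors had 2 of 7 higher and 0 lower (0.39), among them Cst3 at 193 against 63.2 CPM (3.05, 1.45 to 7.69). Membrane and sorting genes had 0 of 4 higher and 1 lower (-0.18) and release genes 3 of 9 higher and 1 lower (0.10), or 1 higher and a median of -0.03 with 2 genes at 3 counts. Among all genes with at least 25 UMIs, 31.5% were higher and 14.2% lower past 1.5 in this comparison. Coro1a, a cytoskeletal gene of the release list, was level at 1672 and 1616 CPM (1.03, 0.886 to 1.21).

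Across the 28 points given by 14 classes in both libraries, including the unassigned barcodes, each member was compared with 8927 genes by Pearson correlation of log2(CPM + 10). These points share libraries and differ in depth, so the values only describe likeness. Nkg7 was most like Klrd1 (0.95), Pla2g16 (0.92), AW112010 (0.92), Ms4a4b (0.91) and Cd160 (0.90). Ctsw was most like Sh2d2a (0.92), Il2rb (0.92), Gimap4 (0.91), Runx3 (0.90) and Txk (0.90), and Cst7 most like Adcy7 (0.85), Dynll2 (0.84), Runx3 (0.81), Nlrc3 (0.79) and H2-Q7 (0.78). Serpinb6b was nearest to Samd3 (0.92), Baiap3 (0.92), Gzma (0.91), Klrc1 (0.90) and Klrc2 (0.90), and Serpinb9 to Klrk1 (0.87), Dok2 (0.84), H2-Q6 (0.84), Klrc1 (0.84) and Klra9 (0.84). Srgn was nearest to Ndel1 (0.89), Chp1 (0.87), Fam32a (0.84), Csrnp1 (0.81) and D8Ertd738e (0.79). Among the members themselves Nkg7 and Serpinb6b had 0.86, Serpinb9 and Serpinb6b 0.83 and Nkg7 and Ctsw 0.81, whereas Srgn was between -0.27 and -0.11 with the other 5.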

How the data were processed

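The deposited files held UMI counts per gene and barcode for 1 WT and 1 twi library, which the authors made with Cell Ranger 2.1.1 on the mm10 build according to the submitters' processing notes. By the study's methods, reads were filtered by index match, mapping and base quality, barcodes were matched to the 10x list, and an adaptive UMI threshold separated cells from ambient RNA. Barcodes with more than 15% mitochondrial UMIs were removed (7 in WT, 13 in twi). The rest were assigned to 14 classes by marker UMIs: neutrophils by at least 3% of UMIs from neutrophil markers, B cells and phagocytes by at least 3 marker UMIs, T cells by 1 UMI of Cd3 and of Cd8 or Cd4, NK cells by 2 UMIs of Ncr1, Klrb1c, Klre1, Eomes and Klra8. CD8 T barcodes were called effector with at least 2 UMIs of Ccl5 and Cxcr6 and none of Ccr7 and Lef1, and naive with at least 1 UMI of naive markers (among them Ccr7, Lef1 and S1pr1) and none of Ccl5 and Cxcr6. Of these, 1 naive marker and 1 class of Cd3+ barcodes are not reported here. C1q+ phagocytes needed 3 UMIs of C1q genes and immature neutrophils 10 UMIs of Ltf, Camp and Ngp. No doublet caller was run, and the 5% of barcodes with most UMIs were left out as an alternative.

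UMIs were summed per class and library. Levels carry exact Poisson, shares Clopper-Pearson and ratios exact conditional 95% intervals, all for counting error only, and no test was possible with 1 library per genotype. A group at 0 was held at 3 counts. Backgrounds count genes with at least 25 UMIs past a ratio of 1.5 and lists genes with at least 10, with 0.5 UMIs added for medians. Members, the genes of the lists with at least 25 UMIs in effector CD8 T barcodes and the 5 genes most like each member (of those with at least 50 UMIs) were named. Members and lists were chosen with earlier results of these data known. Python 3.11.15, numpy 2.4.6, scipy 1.17.1, pandas 2.3.3 and matplotlib 3.10.9 were used, and the scripts were tested on simulated data.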

Additional observations from a re-analysis of the deposited data

Results flagged for a closer look

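Nkg7 differed between the genotypes in opposite directions in 2 classes: the ratio of twi over WT was 1.77 in all CD8 T barcodes and 0.721 in NK barcodes. With 1 library per genotype the difference between these ratios was not tested.

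Barcodes above the mitochondrial limit, which entered a comparison only where that limit was lifted as an alternative, held 53 Nkg7 UMIs among 16339 UMIs in twi and 3 among 8237 in WT. They also held 25 and 3 Ctsw UMIs in twi and WT.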

How the results depend on the processing

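No paired analysis was possible because each genotype was 1 library, and for the same reason no replicate could be left out. Of 328 values of the genotype comparisons in effector CD8 T, all CD8 T and NK barcodes and of effector over naive CD8 T under alternatives, 303 stayed inside their counting interval and 25 did not, and 0 of the values whose interval excluded 1 changed direction. The WT effector class of 11 barcodes gave most of these. There the Nkg7 ratio of twi over WT was 1.34 as a mean over barcodes, 1.40 with median of ratios scaling, 1.60 with effectors set by Cxcr6, 1.43 without the 5% of barcodes with most UMIs, 1.37 without the richest barcodes and 1.32 without NK marker barcodes, those with at least 2 NK marker UMIs. That of Ctsw was 5.58 with 2 UMIs of Cd3 and Cd8, 1.36 by Cxcr6 and 5.94 without the richest barcodes, that of Serpinb9 2.83 as a mean over barcodes, and that of Serpinb6b 0.336 by Cxcr6 and 0.171 without the top 5%. In all CD8 T barcodes Nkg7 was 2.05 without the top 5% and 1.51 in barcodes with Y-linked transcripts and no Xist, where Srgn was 0.906, and Serpinb6b was 1.56 without the top 5%, 1.36 without the richest barcodes and 1.59 without NK marker barcodes. In NK barcodes Nkg7 was 0.795 with median of ratios scaling. Effector over naive in WT was 2.31 for Nkg7 with that scaling, 2.14 by Cxcr6 and 2.46 without NK marker barcodes, and for Ctsw 0.385 with 2 UMIs, 1.60 by Cxcr6 and 0.396 without the richest barcodes.

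Of 472 other values, 437 stayed inside their interval or, for counts of genes, within 1.5 times, 33 did not and 2 whose interval excluded 1 changed direction: Nkg7 in CD4 T barcodes, at 0.764 with 2 UMIs of Cd3 and Cd4, and Srgn in other phagocytes, at 0.755 in barcodes with Y-linked transcripts and no Xist. The causes were not tested. Leaving out the richest or the NK marker barcodes was chosen after seeing the data. Several alternatives gave no value for Serpinb9 and Serpinb6b in effector CD8 T barcodes or for Cst7 in phagocytes, because too few UMIs were left. Depth limits the serpins most, with 10 Serpinb9 UMIs in the CD8 T barcodes of WT.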
